A study of Mus musculus with 186 samples.

Results

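Of 23 constructs in a TrAC-seq library built on the mouse Pwp2 promoter, 22 could be compared between wild-type (WT) embryonic stem cells (ESCs) and cells without DNA methyltransferases (TKO). They are 11 of 11 constructs in the native sequence, 10 of 11 in an artificial sequence and the CpG-poor sequence Pwp2_BackGr. The series lists 572 constructs over 8 reporter tables. Those of this library were kept where they had at least 3 barcodes (BCs) in at least 2 replicates of each cell line. The artificial construct allmut_CG_10.2 did not pass, since it had 1 or 2 BCs and no activity value in each TKO replicate. Its log2 activity in WT cells was -2.94, -2.64 and -2.86.

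In TrAC-seq, a pool of promoters is inserted into a single site of the genome, and the RNA made from each promoter is counted by the BCs linked to it and divided by the count of those BCs in genomic DNA. The site was a cassette-exchange site in the beta-globin locus, which is silent in ESCs, in both cell lines. WT cells are the mouse ESC line that carries this site, and TKO cells are that line after Cas9 deletion of Dnmt1, Dnmt3a and Dnmt3b. There were 3 replicates in each line, each an RNA and a DNA sample, so that 12 of 186 samples belong to this comparison. Samples of other libraries entered only where those libraries are compared or fitted together with this one. The sources used here do not say whether the TKO line is a single clone or whether replicates were separate cultures, and p-values measure only the spread between these samples. BC counts hold no marker genes, and neither the cell type nor the deletion could be checked in them.

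Most CpG islands, CpG-rich regions found at many promoters, among them those of housekeeping genes, are free of DNA methylation. Dnmt3a and Dnmt3b add methyl groups to cytosines of new sites, and Dnmt1 restores them after replication. A promoter that loses CpGs can gain methylation and fall silent, and a comparison with cells that cannot methylate asks whether lost activity depends on the methyltransferases. Pwp2 encodes a WD-repeat protein of the complex that processes ribosomal RNA for the small ribosomal subunit, and its promoter is a CpG island.

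The native Pwp2 insert of another library in the series lies at chr10:77647729-77648156 of mm9, on the minus strand. It is 428 bases long, with 37 CpGs and an observed over expected ratio (OE, the number of CpGs relative to that predicted from the C and G content) of 0.983. Row WT of the library described here is listed with 2 more CpGs, 39, so that both sequences are not identical. The insert at this position spans the annotated start of Pwp2 (ENSMUSG00000032834.9) at position 77647894, exon 1 with the start codon, and the beginning of intron 1. The 262 bases before that start, at chr10:77647895-77648156, are shown 5′ to 3′ on the minus strand with their 19 CpGs in capitals, because CpGs are the dinucleotide that the library varies. Which of them were mutated in a construct is not given in the values used here:

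Pwp2 upstream of the start: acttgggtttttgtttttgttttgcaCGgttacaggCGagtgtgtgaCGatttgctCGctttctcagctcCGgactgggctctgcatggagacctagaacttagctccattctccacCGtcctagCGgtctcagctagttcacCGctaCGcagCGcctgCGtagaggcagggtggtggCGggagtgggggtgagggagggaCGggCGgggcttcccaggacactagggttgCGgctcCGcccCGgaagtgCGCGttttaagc

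The letters CCGGAAGT, bound by the ETS factor GABPA, were found once on either strand, 21 to 14 bases before the start. The letters GGGCGGGG, a GC box bound by SP1 and SP3, were found once, 60 to 53 bases before it, and do not overlap the first. Of 32851 RefSeq promoter windows of the mouse (GRCm38.p6), 3.89% hold the first motif and 17.6% the second on either strand. Both motifs contain a CpG. A match of letters is a description of the sequence, and a search for exact letters misses other forms of a motif. With its own motif scores, the paper located more than 1 motif of GABPA and of SP1 in the Pwp2 promoter. In the paper, the replaced window with the strongest effect overlapped a GABPA motif and part of an SP1 motif.

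Native constructs carry between 19 and 39 CpGs. Row WT has 39 (OE 0.988), and allCGmutWT has 19 (OE 0.585) after all 20 removable CpGs were mutated. Between these lie 9 constructs, 3 each with 35, 29 and 23 CpGs, which keep 16, 10 or 4 of the 20 (WTmut_CG_16, WTmut_CG_10 and WTmut_CG_4, each in 3 versions told apart by a suffix). In the artificial constructs, the parts of Pwp2 with little effect on activity were exchanged for sequence without CpGs. That sequence alone is allmut, with 19 CpGs (OE 0.595), and allmutallCGadded has 39 (OE 1.03). The constructs allmut_CG_4, allmut_CG_10 and allmut_CG_16 had 4, 10 or 16 CpGs added, again in 3 versions each. The number of CpGs was therefore matched between contexts, while the G+C content was 55.8 to 59.96% in native rows and 53.6 to 58.2% in artificial rows.

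The number of BCs behind a value differed between contexts and replicates. The 3 WT replicates held 1686, 400 and 422 BCs, and the 3 TKO replicates 315, 299 and 335. WT replicate 1 thus stood apart by its number of BCs. In TKO cells, native rows rested on 9 to 58 BCs, with a median of 17 to 19 per replicate. Artificial rows rested on 3 to 13 BCs, with a median of 5 to 6. Read totals behind the deposited ratios are unknown.

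As deposited, activity was lower in TKO than in WT cells for 20 of 22 constructs, and 7 fell by the test of each construct (limma, adjusted p below 0.05), which is 31.8% of those tested. None rose (0%). The 7 were 3 of 11 native and 4 of 10 artificial constructs. Over all 22, the median log2 change was -0.32, against -0.25 over native rows and -0.47 over artificial rows. An unadjusted p below 0.05 was reached by 10 constructs. Without TKO replicate 3, 4 constructs fell, and without WT replicate 1 the median change of native rows was -0.43. In 11 of 22 constructs (50%) the 3 TKO values lay below the 3 WT values without overlap, in 4 of 11 native and 6 of 10 artificial rows and in Pwp2_BackGr. These directions depend on the scaling, since RNA and DNA of a replicate were scaled to each other over the whole pool and a shift common to all constructs cannot be separated from it. With each replicate centred on its median construct, whose level was 0.79 lower in TKO cells on the log2 scale, 1 construct fell and 8 rose.

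The promoter without mutations, row WT, had log2 activities of -0.23, 0.41 and 0.25 in WT cells and 0.09, -0.32 and -0.09 in TKO cells. The groups overlapped, and the change of -0.25 (95% confidence interval -0.74 to 0.23) did not pass (limma, adjusted p = 0.325). Without single replicates it ranged from -0.44 to -0.12. In another pool with mutated Pwp2 windows and motifs, which was scaled separately, unmutated Pwp2 gave 1.26, 1.80 and 1.60 in WT cells and -0.01, 1.17 and 1.04 in TKO cells. In that pool every TKO value lay below every WT value. The levels of both pools cannot be compared.

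Among native constructs, the one with the fewest CpGs had the largest fall. AllCGmutWT, in which all removable CpGs are mutated, gave -0.50, -0.37 and -0.32 in WT cells and -1.14, -1.17 and -1.12 in TKO cells. The TKO values lay close together, and each was below every WT value. Activity was 59.5% of that in WT cells, a log2 change of -0.75 ± 0.10 (SE, 3 against 3 replicates, limma, adjusted p = 0.00451).

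WTmut_CG_4.2, which keeps 4 removable CpGs, gave -0.38, -0.33 and -0.27 in WT cells and -0.84, -0.91 and -0.95 in TKO cells. Again the groups did not overlap, and the log2 change was -0.58 ± 0.09 (SE, limma, adjusted p = 0.00652). WTmut_CG_10.1, which keeps 10, gave 0.28, 0.79 and 0.51 in WT cells and -0.20, -0.10 and -0.27 in TKO cells. It fell by 0.71 on the log2 scale (SE 0.15, limma, adjusted p = 0.0128), but not when either WT replicate 3 or TKO replicate 3 was left out (adjusted p = 0.0501 and 0.0509). Over 12 alternatives, its adjusted p ranged from 0.00631 to 0.618.

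Changes varied among constructs with the same number of CpGs, a difference that was not tested. WTmut_CG_4.1 also keeps 4 removable CpGs and was the one native row with a higher mean in TKO cells. Its values were -0.36, -0.05 and -0.47 in WT cells and -0.07, 0.21 and -0.10 in TKO cells. They overlapped, and the change of 0.30 ± 0.16 (SE) did not pass (limma, adjusted p = 0.171). The 3 native constructs with 23 CpGs thus had changes from -0.58 to 0.30, those with 29 CpGs from -0.71 to -0.24, and those with 35 CpGs from -0.33 to -0.19. None of the last 3 passed. WTmut_CG_4, WTmut_CG_10 and WTmut_CG_10.2, with changes of -0.33, -0.24 and -0.24, did not pass either. WTmut_CG_16 was the most active native row in both lines, at 0.72 ± 0.24 in WT cells and 0.53 ± 0.03 in TKO cells (mean log2 activity and SD, n = 3).

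Artificial constructs were much less active in both lines, and their changes were spread more widely, from -1.70 to 0.05. Without added CpGs, allmut gave -3.69, -3.92 and -3.93 in WT cells and -4.19, -4.28 and -4.00 in TKO cells. The groups did not overlap, and the change of -0.31 ± 0.12 (SE) did not pass (limma, adjusted p = 0.0976). The WT mean lay 0.48 above -4.32, the lowest log2 activity that the assay's pseudocount allows, and the TKO mean 0.16 above it. Pwp2_BackGr, with 2 CpGs, stood next to that limit, at -4.12, -4.11 and -4.07 in WT cells and -4.32, -4.32 and -4.31 in TKO cells (adjusted p = 0.0976, limma).

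The largest fall of all was that of allmut_CG_10, an artificial construct with 10 added CpGs. It gave -2.48, -1.41 and -2.22 in WT cells and -3.58, -3.93 and -3.68 in TKO cells. In TKO cells its activity was 30.9% of that in WT cells, a log2 change of -1.70 (95% confidence interval -2.39 to -1.004, limma, adjusted p = 0.00652). The WT values spread over more than a log2 unit, and the TKO values rested on 3, 5 and 5 BCs. The WT mean lay 2.29 above the lowest measurable log2 activity and the TKO mean 0.59 above it. The pseudocount thus weighs on the size of this fall. The second construct with 10 added CpGs, allmut_CG_10.1, gave -2.68, -2.33 and -2.87 in WT cells and -3.21, -3.43 and -3.30 in TKO cells. It fell by 0.68 (SE 0.16, limma, adjusted p = 0.0190), with 3, 6 and 6 BCs in TKO cells. That call did not hold without WT replicate 1, TKO replicate 2 or TKO replicate 3 (adjusted p = 0.0526, 0.0629 and 0.0509, limma), and over 11 alternatives the adjusted p ranged from 0.0128 to 0.572.

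The most active artificial construct in both lines was allmut_CG_16.2, with 16 added CpGs. It gave -1.04, -0.49 and -0.73 in WT cells and -1.50, -1.63 and -1.79 in TKO cells. The groups did not overlap, and it fell by 0.89 on the log2 scale (SE 0.17, limma, adjusted p = 0.00909), to 53.98% of its activity in WT cells. The other two constructs with 16 added CpGs, allmut_CG_16 and allmut_CG_16.1, changed by -0.48 and -0.23, and neither passed (limma, adjusted p = 0.0814 and 0.468).

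With 4 added CpGs, allmut_CG_4.1 gave -1.54, -1.98 and -1.73 in WT cells and -3.33, -2.35 and -2.62 in TKO cells. Every TKO value was lower, and the log2 change was -1.02 ± 0.27 (SE, limma, adjusted p = 0.0272). It rested on 4, 3 and 5 BCs in TKO cells and did not pass without WT replicate 1, WT replicate 3 or TKO replicate 3 (adjusted p = 0.1001, 0.116 and 0.0509, limma). Over 11 alternatives, its adjusted p ranged from 0.0106 to 0.569. The construct allmut_CG_4.2 gave -3.08, -3.48 and -4.00 in WT cells and -3.56, -3.26 and -3.59 in TKO cells. This was the highest change among artificial rows, 0.05 ± 0.24 (SE, limma, adjusted p = 0.834), and its sign turned when WT replicate 3 or TKO replicate 2 was left out (-0.18 and -0.05). The change of allmut_CG_4 was -0.45 (adjusted p = 0.167, limma). In WT cells, the means of allmut_CG_4.2 and allmut_CG_4 lay 0.80 and 1.11 above the lowest measurable log2 activity. That of allmut_CG_4.1 lay 2.57 above it. A fall as large as that of allmut_CG_4.1 could therefore not be measured in allmut_CG_4.2. With all CpGs added, allmutallCGadded gave -1.99, -1.99 and -1.45 in WT cells and -2.05, -1.80 and -1.95 in TKO cells. The groups overlapped, with a change of -0.12 (95% confidence interval -0.56 to 0.31, limma, adjusted p = 0.535).

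Activities were next taken relative to row WT of the same replicate, the scale that the study used for this library. It removes a shift common to the pool, except for rows near the lowest measurable activity, which cannot fall with the pool. On this scale 12 of 21 constructs were lower and 9 higher in TKO cells. The 9 include Pwp2_BackGr, with a change of 0.04, whose TKO mean lay 0.003 above the lowest measurable log2 activity. The median change was -0.07 over all, -0.03 over the 10 other native rows and -0.21 over the 10 artificial rows. Only allmut_CG_10 passed, 1 of 21 constructs or 4.76%. None rose (0%). Allmut_CG_10 had 17.98 to 28.3% of the activity of row WT in WT cells and 7.85 to 8.30% in TKO cells, a log2 change of -1.44 ± 0.29 (SE, limma, adjusted p = 6.33e-05). Its TKO mean lay 0.59 above the lowest measurable log2 activity. The spread of row WT enters each value on this scale and is shared by all of them, which limma's test does not model, and the median 95% interval reached 0.57 to either side of the change. From the spread over all constructs limma took 263 prior degrees of freedom here, against 2.21 as deposited. The adjusted p-values of both scales therefore cannot be compared, and the smaller one of allmut_CG_10 here does not mean stronger evidence.

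Compared with row WT, allCGmutWT had 58.3 to 82.95% of the activity in WT cells and 42.7 to 55.6% in TKO cells. Its change of -0.49 had an interval of -1.07 to 0.08 and did not pass (limma, adjusted p = 0.378). With replicates weighted by their number of BCs it did, with a change of -0.57 (limma, adjusted p = 0.00515, against 0.00515 to 0.786 over 13 alternatives). WTmut_CG_4.2 and WTmut_CG_10.1, which fell as deposited, changed by -0.32 and -0.46 relative to row WT (adjusted p = 0.689 and 0.399, limma), and WTmut_CG_4.1 by 0.56 (0.295). Allmut_CG_16.2 had 50.4 to 57.1% of the activity of row WT in WT cells and 30.8 to 40.5% in TKO cells. The groups did not overlap, and the change of -0.63 did not pass the adjusted test (limma, adjusted p = 0.210). Allmut_CG_4.1 changed by -0.76 and allmut_CG_10.1 by -0.43 (adjusted p = 0.119 and 0.424, limma). Without single replicates, these changes ranged from -1.08 to -0.38 and from -0.60 to -0.27, and that of WTmut_CG_4.2 from -0.45 to -0.16. AllmutallCGadded had 18.9 to 30.7% in WT cells and 22.8 to 36.1% in TKO cells, and allmut 4.97 to 9.11% and 5.14 to 6.66%. Both pairs of ranges overlapped.

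Row WT was also replaced as the reference by the mean of the 11 native rows of a replicate, a choice made after the values were seen. Then 3 constructs passed. Allmut_CG_10 fell by 1.38 and allmut_CG_16.2 by 0.57, and WTmut_CG_4.1 rose by 0.62 (limma, adjusted p = 0.00383, 0.0315 and 0.0315). AllCGmutWT changed by -0.43 (adjusted p = 0.0641, limma).

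The distance between both contexts can be read within a replicate, where a common factor cancels except for rows near the lowest measurable activity. Native rows averaged -0.01, 0.29 and 0.29 in the WT replicates and -0.14, -0.08 and -0.16 in the TKO replicates. Artificial rows averaged -2.32, -2.28 and -2.34 in WT cells and -2.97, -2.82 and -2.91 in TKO cells. Native minus artificial was thus 2.32, 2.57 and 2.63 in WT cells and 2.82, 2.74 and 2.76 in TKO cells. The distance was 0.26 larger in TKO cells (2.51 ± 0.17 against 2.77 ± 0.04, mean and SD, n = 3) and the 6 values did not overlap, but 3 against 3 replicates cannot give an exact p below 0.1. Without WT replicate 1 the difference was 0.17. As a ratio of geometric means, artificial rows had 17.6% of the activity of native rows in WT cells and 14.6% in TKO cells. With at least 10 BCs required, allmut was the one artificial row left, and the distance changed by -0.0052.

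At matched numbers of CpGs the distance did not change in one direction. With 29 CpGs it was 2.71, 2.25 and 2.98 in WT cells and 3.19, 3.79 and 3.34 in TKO cells, over 3 native and 2 artificial rows. With 35 CpGs it was 1.94, 2.01 and 2.09 against 2.41, 2.13 and 2.40. In both classes the TKO values were higher without overlap. With 19 CpGs it was instead lower in TKO cells, at 3.05, 3.11 and 2.88 against 3.19, 3.55 and 3.61 in WT cells, where allmut stood next to the lowest measurable activity. The classes with 23 and 39 CpGs overlapped between the lines. With 39 CpGs the mean distance was 1.95 ± 0.39 in WT cells and 1.82 ± 0.33 in TKO cells (SD, n = 3), which in WT cells is within the spread of the 2.01 ± 0.07 with 35 CpGs.

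Activity rose with CpG density in both contexts and both lines by the slope, but not at every step. From 35 CpGs to the single constructs with 39, the native mean went from 0.57 to 0.14 in WT cells. In TKO cells it went from 0.33 to -0.11. Artificial means went from -1.45 to -1.81 in WT cells and from -1.98 to -1.93 in TKO cells. In native rows, the slope of log2 activity on OE was 1.49, 2.26 and 2.56 log2 units per unit of OE in the WT replicates and 3.44, 2.15 and 2.31 in the TKO replicates. In artificial rows it was 3.72, 5.59 and 6.12 in WT cells and 5.65, 5.15 and 4.38 in TKO cells. Within each context the lines overlapped, while each artificial slope was above each native slope. The mean Spearman correlation with OE was 0.53 and 0.57 over 11 native rows, and 0.77 in either line over 10 artificial rows. These values are descriptions, since constructs of a context share most of their sequence, the pool and the depth, and OE rises with G+C content in them.

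Removal of all 20 CpGs from the native promoter took 0.27, 0.78 and 0.57 log2 units of activity in WT cells and 1.23, 0.85 and 1.03 in TKO cells. The TKO losses were larger without overlap, 1.45-fold against 2.05-fold in the mean. Since the loss is row WT against allCGmutWT, the test of this difference is that of allCGmutWT relative to row WT given above, which passed with weights by BCs and did not pass without them. Addition of all CpGs to the artificial sequence gained 1.70, 1.93 and 2.48 log2 units in WT cells and 2.15, 2.48 and 2.05 in TKO cells. These gains overlapped, 4.098-fold against 4.67-fold in the mean. From allmut to allmut_CG_16.2 the gain was 2.65, 3.43 and 3.19 in WT cells and 2.69, 2.65 and 2.21 in TKO cells, and it overlapped too. Both gains start from allmut, whose mean lay 0.48 above the lowest measurable log2 activity in WT cells and 0.16 in TKO cells. That limit bounds the size of the gains and weighs more in TKO cells.

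The change between lines had Spearman correlations with OE of 0.41 over 11 native and -0.08 over 10 artificial constructs. As descriptions over few constructs that share sequence and pool, they carry no test. The order of constructs was similar in both lines, with Spearman correlations between mean activities of 0.75 over native and 0.81 over artificial rows. In each context the same construct was highest in both lines, WTmut_CG_16 and allmut_CG_16.2, and the same was lowest, allCGmutWT and allmut. Of the 10 mutated native rows, 7 had a higher mean activity than row WT in WT cells and 7 in TKO cells. WTmut_CG_10.1 did so in WT cells alone and WTmut_CG_4.1 in TKO cells alone. No artificial row did in either line.

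Constructs with equal numbers of CpGs differed by up to 1.77 log2 units among artificial rows in WT cells, between allmut_CG_4.1 and allmut_CG_4.2 with 23 CpGs. In TKO cells the spread in that class was 0.90. In native rows with 23 CpGs it was 0.69 in WT cells and 0.93 in TKO cells. The pooled SD between replicates of a construct was 0.23 and 0.22 in native rows and 0.32 and 0.29 in artificial rows, in WT and TKO cells.

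The share of constructs with lower activity differed between the libraries measured in TKO cells and with the scale. When the constructs of all 4 such libraries were fitted together, 90.9% of the 22 constructs described here had lower activity as deposited in TKO cells. This was so for 72.4% of 29 constructs with Pwp2 windows and motifs mutated, 33.3% of 33 in the Snx3 library and 41.2% of 51 with CpGs mutated in further CpG island promoters. Each library was scaled on its own, and relative to row WT or its equivalent the shares took another order. There, 57.1% of 21 constructs described here were lower in TKO cells, against 7.14% of 28 with Pwp2 windows and motifs mutated, 56.2% of 32 in the Snx3 library and 63.6% of 33 with CpGs mutated in further promoters. In the joint fit as deposited, 2 of the 22 remained below the threshold, allCGmutWT and WTmut_CG_4.2 (limma, adjusted p = 0.0338 for both). Over their 12 alternatives, the adjusted p of the first ranged from 0.000831 to 0.764 and that of the second from 0.00117 to 0.235.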

How the data were processed

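Activities were deposited as a ratio. The authors scaled the BC counts of the RNA and DNA sample of a replicate to the smaller total, kept BCs with more than 20 DNA reads, divided RNA by DNA counts with a pseudocount of 0.05 added to this enrichment, and took the geometric mean over the BCs of a construct. The authors also deposited, for each construct, its G+C content in percent, OE as a ratio, and the numbers of BCs and CpGs. Barcodes were linked to promoters by the authors, whose processing notes name Bowtie and mm9. According to the paper, Bowtie served libraries whose design allowed alignment. Reads of mutant promoter libraries were instead matched to the reference sequences by string distance. The insert position was taken from a further deposited table, and its bases from NCBIM37 (mm9) with the GENCODE M1 annotation.

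Here, activities were converted to log2 and compared between lines for each construct with limma 3.58.1 (R 4.3.3, two-sided, Benjamini-Hochberg over all constructs that passed, threshold 0.05), as deposited and relative to row WT of the same replicate. The test was tested on simulated data. Those covered only the scale as deposited, with the same spread for all constructs. Other values were computed in Python 3.11.15 with scipy 1.17.1, pandas 2.3.3 and numpy 2.4.6 and are descriptions. Values in every replicate are given for row WT, allCGmutWT, allmut, allmutallCGadded, the most active artificial row, every called construct (at most 5 in each direction beyond these) and the largest rise and fall of each context. Other constructs are given by range. Constructs, lists and tests were chosen with earlier results of these data known. Alternatives were BC minimums, weights by BCs, a replicate block, centring, low rows or row WT left out, a joint fit of 4 libraries and each replicate left out. No column of sample values was left without a sample. Sequences of the artificial constructs were not used here.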

Additional observations from a re-analysis of the deposited data

How the results depend on the processing

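The numbers of the replicates, which the labels give in both lines, are not stated to pair them. The deviations of WT and TKO samples with the same number from their group means correlated at -0.43, -0.37 and -0.01 over 22 constructs. Between samples with different numbers the correlations ranged from -0.22 to 0.47. So few values cannot settle whether samples with the same number were handled together. With the replicate number as a block, 5 constructs were called as deposited and 1 relative to row WT, all of them among those called without it, and allmut_CG_10.1 and allmut_CG_4.1 were not called (limma, adjusted p = 0.0665 and 0.0701).

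As deposited, 7 constructs were called. With at least 10 BCs, 13 constructs were tested and 4 called, 3 of which were called before. In the joint fit with 3 further libraries 2 were called. Leaving out single replicates gave 4 to 8 calls. Relative to row WT, 1 construct was called, and 1 without any of the 6 replicates. With at least 10 BCs and in the joint fit the count was 0, with 2 and 1 constructs at an unadjusted p below 0.05 (limma). It was 2 with weights by BCs, where allCGmutWT was added, 3 relative to the mean of native rows and 6 after centring on medians.

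Centring on the median of each replicate turned most directions. The median of the 22 rows fell between both contexts, next to allmut_CG_16.2 in all 6 replicates and allCGmutWT in 5, both of which fell as deposited, so that this setting compares other rows with those. The median change became 0.54 for native and 0.33 for artificial rows. As deposited, the changes became 0.54 for WT, 0.045 for allCGmutWT, 0.48 for allmut, 0.67 for allmutallCGadded, 0.079 for WTmut_CG_10.1, 0.22 for WTmut_CG_4.2 and 0.11 for allmut_CG_10.1. Centring was also applied to values relative to row WT, where row WT cancels and the reference becomes the median of the 21 other rows. It is therefore nearly the same setting, and not a result relative to row WT. Changes became 0.14 for allCGmutWT, 0.58 for allmut, 0.18 for WTmut_CG_10.1, 0.31 for WTmut_CG_4.2 and 0.21 for allmut_CG_10.1. Allmut_CG_10 was called lower in each of these.

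Other results that turned were small. With weights by BCs, allmut_CG_4.2 changed by -0.24 as deposited and -0.26 relative to row WT, and allmutallCGadded by -0.050 relative to row WT. Relative to the mean of native rows, allmut changed by 0.0052. Without single replicates, allmutallCGadded changed by -0.22 to 0.056 as deposited and -0.094 to 0.29 relative to row WT, allmut_CG_4.2 by -0.18 to 0.27 as deposited, and allmut by -0.23 to 0.21 relative to row WT. The cause was not tested.

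The median change of native rows was -0.43 to -0.20 without single replicates and that of artificial rows -0.57 to -0.36. The distance between contexts changed by 0.17 to 0.33, and by -0.0052 with at least 10 BCs, where allmut is the single artificial row. Without row WT, the native slopes on OE were 2.84 in WT and 3.43 in TKO cells. The slope of artificial rows could not be computed with at least 10 BCs. A minimum of 1 BC and leaving out values on fewer than 3 BCs gave no other values, since the table holds none. Artificial rows rest on few BCs in TKO cells.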
